A study of Mus musculus with 20 samples.

Results

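Tanycytes are radial glia-like cells that line the floor and lower walls of the third ventricle, and their processes reach the arcuate nucleus and the blood vessels of the median eminence. Insulin binds the insulin receptor, a tyrosine kinase encoded by Insr that signals through receptor substrates, PI3K and AKT. The data described here are the input libraries, that is, RNA from the whole tissue lysate taken before the ribosomes of tanycytes were pulled down. They ask which transcripts of the surrounding tissue differ when tanycytes lack the receptor. The comparison holds 6 of the 20 libraries of the series, 3 from IRΔTan mice and 3 from controls, and was fitted on these inputs alone.

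IRΔTan mice carried 2 floxed Insr alleles (IR fl/fl) and controls carried wild-type Insr (IR wt/wt). Both groups also carried the Cre-dependent ribosomal tag L10a-GFP, were fed normal chow (NCD) and, by the series design, received AAV-Dio2-Cre in the lateral ventricle at 12 weeks of age, in which the promoter of the type 2 deiodinase gene drives Cre. The sample labels call the genotypes IRdelTan and IRmKate2, although the series design gives both groups the Cre virus. The paper's surgical methods name both an mKate2 and a Cre virus for ribosomal profiling. Its profiling methods give AAV-Dio2-Cre to mice of both genotypes, and the ribosomal tag depends on Cre. The arcuate nucleus and median eminence were taken 4 weeks later. Each replicate was a pool of both sexes, of 5 to 7 mice by the series design and of somewhat fewer at the lower end by the extraction protocol. Because floxed and wild-type mice were compared, the deletion and anything else carried with the floxed allele cannot be told apart. A group of 4 inputs of high-fat diet (HFD)-fed controls with wild-type Insr is used below to show levels. For some genes their difference from NCD-fed controls is also given. That comparison shares its NCD-fed control inputs with the main one, so their fold changes are not independent.

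The inputs held 48557000 to 52810000 estimated counts in IRΔTan pools and 40492000 to 45845000 in control pools. Although the labels name tanycytes as the tissue, the inputs hold the whole region, and the tanycyte homeobox gene Rax did not pass the expression filter. Of 28 tanycyte markers 27 were tested, and their summed level was 573.3 to 621.6 CPM (counts scaled to a common library total) in IRΔTan pools and 580.0 to 602.0 CPM in control pools, on a scale over all 10 inputs that is used for each summed level. Summed neuron markers stood at 13140 to 13760 CPM and 12650 to 13330 CPM, in that order. In bulk tissue, fewer cells of a type and less RNA per cell cannot be told apart. IRΔTan pool 3 stood furthest from the other pools of its group, with a chi-square per degree of freedom of 23.7 and 24.0 against them, compared with 12.8 between the other two and 9.52 to 10.1 among control pools, so no pair of libraries was a duplicate.

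The targeted gene was only a little lower in whole tissue. Insr, on the minus strand of chromosome 8 (GRCm38), had 44.7, 47.7 and 52.3 CPM in the IRΔTan inputs, against 54.5, 56.0 and 54.7 CPM in the control inputs. Every IRΔTan pool was below every control pool, and the mean was 87.6% of control (48.2 ± 3.85 CPM against 55.1 ± 0.836 CPM, SD, n = 3 each). The log2 fold change of -0.19 (SE 0.06) did not pass, with an adjusted p of 0.568 from edgeR, and the two-sided exact permutation test gave p = 0.1, the smallest that 3 against 3 pools allow. On the tagged ribosomes of the same pools Insr had 15.2, 10.9 and 16.9 CPM in IRΔTan mice, against 41.6, 43.7 and 40.3 CPM in controls, a log2 fold change of -1.54 (SE 0.17) in the immunoprecipitations alone. This value also missed the threshold in edgeR (adjusted p = 0.0504), where 0 of 18261 genes passed. The paper compared these immunoprecipitations with DESeq2, which was not run on them alone here. It reports called genes, lower Insr and loss of exon 4 in IRΔTan mice. The effect was 1.36 log2 units (SE 0.18) less negative in the input than in the immunoprecipitation, and this difference passed in edgeR (adjusted p = 0.0482) for 1 of 20038 genes tested (0.00499%), Insr itself. That call is close to the threshold: it was lost when any control pool or IRΔTan pool 1 was left out, with adjusted p of 0.111 to 0.644. The counts cover the whole gene, exons outside the floxed segment included.

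**Figure D1:**
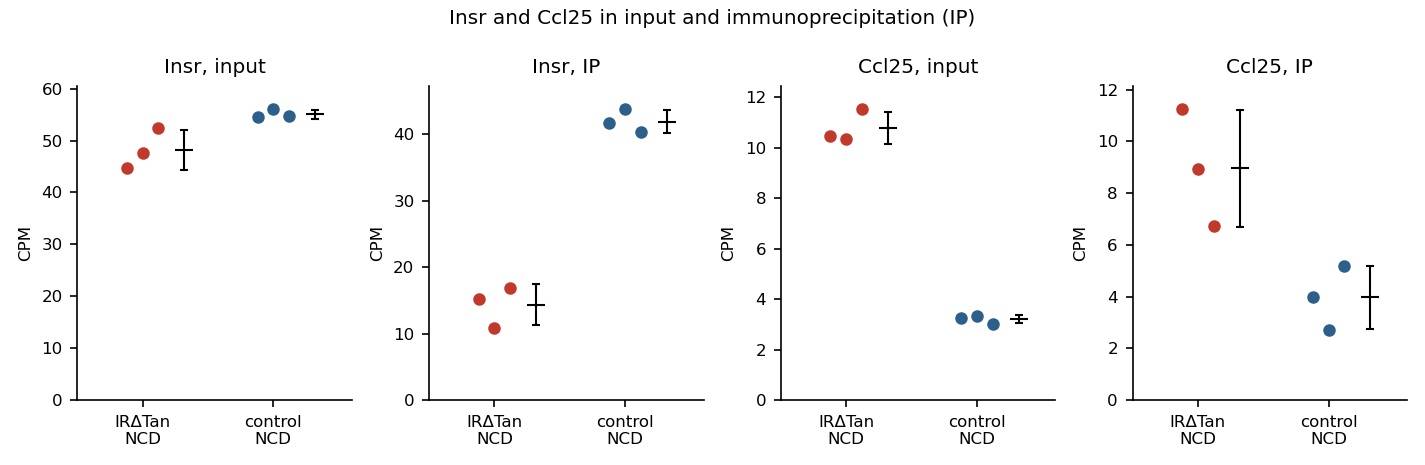
Insr and Ccl25 in the 3 IRΔTan and 3 control pools, in the input and in the immunoprecipitation (IP) of tagged ribosomes (y axes, CPM, scaled separately for the 2 fractions). Points are pools, bars are mean ± SD. Insr was 44.7 to 52.3 CPM against 54.5 to 56.0 CPM in the input and 10.9 to 16.9 CPM against 40.3 to 43.7 CPM in the IP, and IRΔTan pools lay above control pools for Ccl25 in both.

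Few transcripts of the whole tissue passed the test. Of 18782 genes tested, 6 passed an adjusted p of 0.05 in edgeR (0.0319%), 2 higher (0.0106%) and 4 lower (0.0213%) in IRΔTan inputs. At an unadjusted p under 0.05 there were 1507 genes (8.02%), 635 higher (3.38%) and 872 lower (4.64%). This split followed the scaling, being 1536 higher and 456 lower with library totals, where the median log2 fold change of all genes was 0.06 in place of 0.00. Groups did not overlap for 2611 genes (13.9%), 7.03% of all genes being higher and 6.87% lower. Among the 8475 genes of at least 10 CPM, the middle of the distribution was narrow, with 5th and 95th percentiles of -0.15 and 0.15 on the log2 scale, and 3 genes differed by at least 1. As the size of call a design of 3 pools can make depends on level, the median SE was 0.42 log2 units below 1 CPM, 0.16 between 1 and 10 CPM and 0.07 between 10 and 100 CPM.

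Ccl25 rose with the smallest p of all genes tested. It encodes the chemokine CCL25, best known from thymus and small intestine, where it attracts T cells through the receptor CCR9. Ccl25 had 10.5, 10.4 and 11.5 CPM in the IRΔTan inputs, against 3.26, 3.33 and 3.02 CPM in the control inputs, a level 337% of control. On the log2 scale the difference was 1.75 with an SE of 0.10 (edgeR adjusted p = 0.000102; exact permutation p = 0.1, the smallest possible). The groups were far apart relative to the spread within each, and the call held in all 6 fits without 1 pool. On tagged ribosomes the same pools had 11.2, 8.92 and 6.71 CPM against 3.99, 2.72 and 5.18 CPM (log2 fold change 1.18, SE 0.29), again without overlap but short of the threshold in that fit (edgeR adjusted p = 0.794). Scaled over all 10 inputs, Ccl25 was 9.98 to 11.1 CPM in IRΔTan pools, 1.98 to 2.93 CPM in HFD-fed controls and 2.89 to 3.20 CPM in NCD-fed controls, so that IRΔTan pools exceeded all 7 control pools. Ccr9, named for its role as the receptor after its values were seen, averaged 0.230 CPM in IRΔTan inputs and 0.437 CPM in control inputs, with overlapping pools.

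The Ccl25 gene lies on chromosome 8 from 4325210 to 4360020 (GRCm38), on the plus strand. Its annotated start overlaps that of Elavl1, which runs from 4285382 to 4325413 on the minus strand, and the library kit did not mark strand, so reads in the short overlap cannot be told apart. Of the 31-base words of Ccl25 transcripts, 2.32% also occurred in Elavl1 transcripts.

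D230017M19Rik, a long intergenic noncoding RNA on chromosome 1 (72236465 to 72274869) was the other gene that rose. It had 13.1, 13.3 and 13.7 CPM in the IRΔTan inputs, against 8.35, 8.62 and 7.56 CPM in the control inputs (log2 fold change 0.71, SE 0.08, adjusted p = 0.0198 from edgeR). It too exceeded all 7 control pools, with 12.7 to 13.2 CPM in IRΔTan inputs, 8.41 to 9.58 CPM in HFD-fed controls and 7.23 to 8.26 CPM in NCD-fed controls.

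The 4 genes that fell were Dsp, Tmem181a and 2 pseudogenes. Dsp, on chromosome 13 (38151294 to 38198577), encodes desmoplakin, which ties desmosomes to intermediate filaments. It was scarce, with 35, 51 and 43 counts in the IRΔTan inputs, against 120, 139 and 125 in the control inputs, or 0.823 ± 0.125 CPM against 3.07 ± 0.343 CPM (SD, n = 3 each; log2 fold change -1.89, SE 0.21, adjusted p = 0.0175 from edgeR). No pool overlapped, and on tagged ribosomes the log2 fold change was -1.52 (SE 0.41). Dsp was also low in HFD-fed controls with wild-type Insr, at 1.68, 0.643, 0.533 and 1.78 CPM. The same NCD-fed controls had 2.64, 3.29 and 2.89 CPM (log2 fold change -1.38, SE 0.36, adjusted p = 0.0159 from edgeR). In that comparison of diets 27.6% of genes passed.

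Tmem181a, a transmembrane protein gene on chromosome 17 (6256860 to 6308314), had 74.8, 67.4 and 77.5 CPM in the IRΔTan inputs, against 102.3, 104.4 and 96.3 CPM in the control inputs (log2 fold change -0.46, SE 0.06, adjusted p = 0.0388 from edgeR). Its neighbouring pseudogene Tmem181b-ps had 41.5, 31.2 and 41.5 CPM, against 58.7, 61.6 and 58.1 CPM, and missed the threshold (log2 fold change -0.64, SE 0.10, adjusted p = 0.0795 from edgeR). The pair is not independent: 52.6% of the 31-base words of Tmem181b-ps occur in Tmem181a transcripts, so the estimated counts could be split between them. Tmem181a was lower still in HFD-fed controls, at 56.7 to 66.3 CPM against 92.1 to 100.1 CPM in the same NCD-fed controls (log2 fold change -0.69, SE 0.06).

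Nlrp5-ps, a pseudogene of an NLR-family gene on chromosome 7 (14530652 to 14622479), had 15.2, 15.4 and 14.7 CPM in the IRΔTan inputs, against 23, 23.4 and 24.5 CPM in the control inputs (log2 fold change -0.65, SE 0.06, adjusted p = 0.00715 from edgeR). The spread within groups was small, and in HFD-fed controls the level went the other way, to 26.5 to 31.2 CPM against 22.1 to 23.5 CPM (log2 fold change 0.38, SE 0.07, adjusted p = 0.0022 from edgeR). The value is uncertain, as 52.9% of the 31-base words of Nlrp5-ps occur in transcripts of other genes, 39.1% in those of Vmn1r90. Gm6158, a processed pseudogene on chromosome 14 (24069734 to 24070637), was listed at 0 in all 3 IRΔTan inputs and had 38, 35 and 20 counts in the control inputs. Set against 3 counts over the IRΔTan inputs together, this is a level at least 38.6-fold lower in IRΔTan, for counting error only. The value is uncertain, as 92.8% of the 31-base words of Gm6158 occur in Cnot1 transcripts and as it was also at 0 in 2 of the 4 HFD-fed controls. In the immunoprecipitations it was the control pools that held zeros, with 0.889, 1.44 and 0.685 CPM in IRΔTan pools against 1.22, 0 and 0 CPM in control pools.

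**Figure D2:**
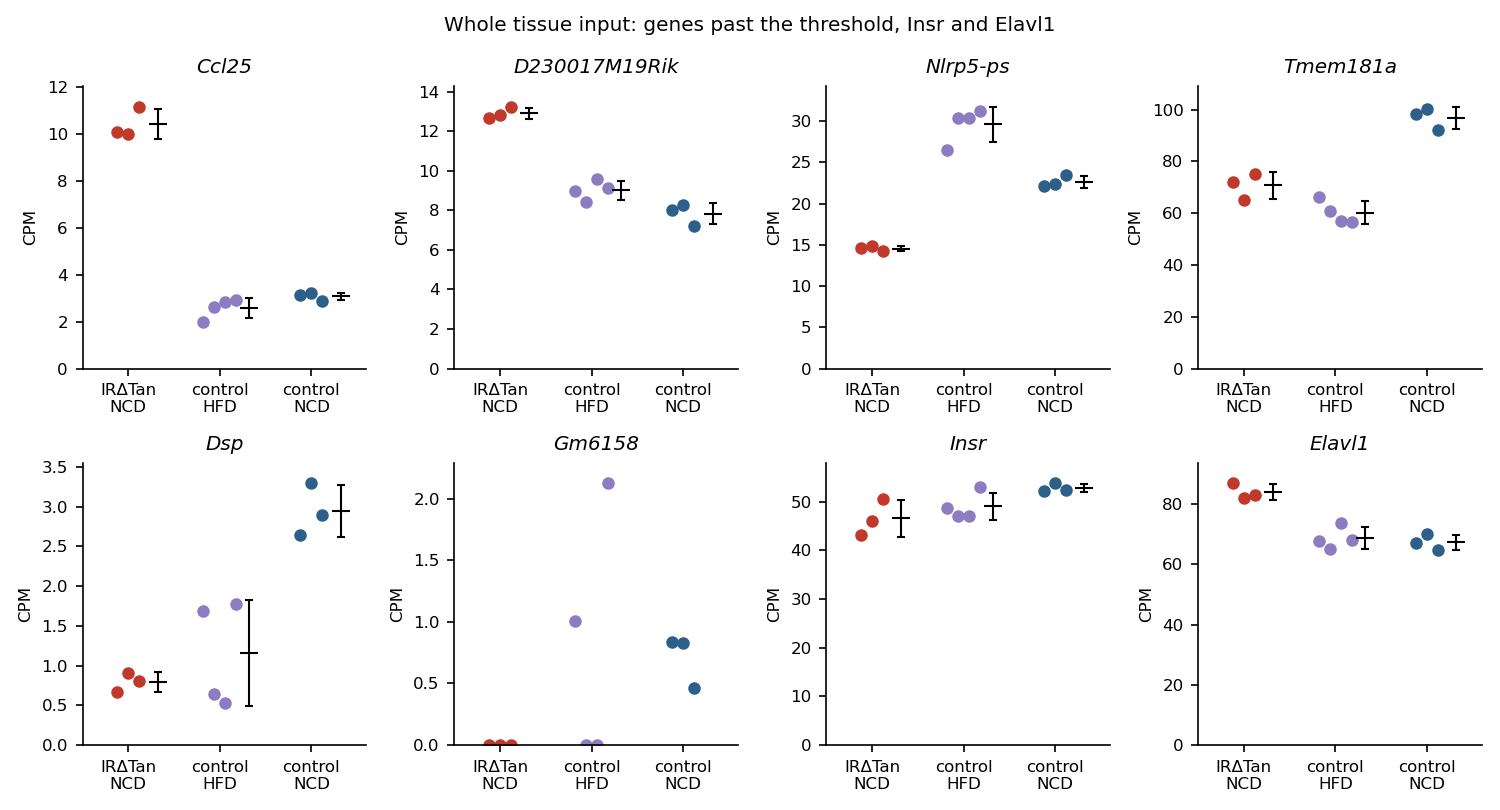
Levels of the 6 genes past the threshold, Insr and Elavl1 in the inputs of IRΔTan, HFD-fed control and NCD-fed control pools (y axes, CPM scaled over the 10 inputs and starting at 0). Points are pools and bars are mean ± SD, left out for Gm6158, which was listed at 0 in some pools. Ccl25 and D230017M19Rik lay above all 7 control pools, at 9.98 to 11.1 CPM and 12.7 to 13.2 CPM, whereas Tmem181a and Dsp were also low in HFD-fed controls.

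Leaving out pools limits these calls. Nlrp5-ps passed in 2 of the 6 fits without 1 pool and Dsp in 1, whereas D230017M19Rik, Tmem181a and Gm6158 passed in 0 of them in edgeR (adjusted p of 0.0611 to 0.135, 0.0779 to 0.203 and 0.0838 to 0.233, in that order). Their directions did not change in those fits. Just outside the threshold stood Ttc14, a tetratricopeptide repeat gene, with 41.3, 39.4 and 40.2 CPM in IRΔTan inputs against 50.2, 51.1 and 53.1 CPM in control inputs (log2 fold change -0.35, SE 0.05, adjusted p = 0.0520 from edgeR). It was also lower in HFD-fed controls than in the same NCD-fed controls (log2 fold change -0.54, SE 0.06).

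Near Insr a larger share of genes had a small p, in both directions. Of 32 tested genes within 2 Mb of Insr, a window chosen after the values were seen, 13 had an unadjusted p under 0.05 (40.6%, against 8.02% of all genes tested), 9 higher and 4 lower. In each fit without 1 pool this number was 10 to 12, and with library totals it was 11. The share was 40.0% within 1 Mb and 42.9% between 1 and 2 Mb, against 5.88% between 5 and 10 Mb, 4.76% between 10 and 20 Mb and 5.34% between 20 and 50 Mb. Ccl25, 1046 kb from Insr, was the only one of them past the adjusted threshold in edgeR. DESeq2 called 5 of them, and 52 of the 24205 genes it tested.

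Elavl1, which encodes the RNA-stabilizing protein HuR, had 90.2, 85.2 and 85.9 CPM in IRΔTan inputs against 70.0, 73.0 and 67.9 CPM in control inputs (log2 fold change 0.31, SE 0.05, adjusted p = 0.0795 from edgeR). Pex11g, a peroxisomal membrane gene 177.5 kb from Insr, had 4.07, 4.52 and 4.16 CPM against 2.29, 2.12 and 2.32 CPM (log2 fold change 0.92, SE 0.14, adjusted p = 0.0795 from edgeR). Neither gene overlapped between groups, and both were higher on tagged ribosomes too (log2 fold changes 0.24, SE 0.12, for Elavl1 and 1.13, SE 0.24, for Pex11g). Of the 31-base words of Pex11g, 39.9% also occur in Gm44775 transcripts. Pnpla6, the neuropathy target esterase gene, had a log2 fold change of 0.38, Pet100 one of 0.31, Evi5l 0.28, Trappc5 0.23 and Ctxn1 0.19, and the scarce Fcer2a had 1.38 at 0.457 to 0.574 CPM in IRΔTan inputs against 0.0494 to 0.321 CPM in control inputs. On the lower side Cd209c, a lectin receptor gene, had -0.60, Stxbp2 -0.32, the ceramide synthase gene Cers4 -0.29 and Snapc2 -0.20. Of the 12 of these 13 genes that were also tested in the immunoprecipitations, 9 had the same sign there, and 24 of all 29 genes of the window tested in both did. Both fractions come from the same pools, and the share of all genes with the same sign was not counted. Of the 32 genes, 5 exceeded all 7 control inputs (15.6%, against 1.3% of all genes), namely Ccl25, Elavl1, Pex11g, Pnpla6 and Fcer2a, and 0 lay below all 7 (against 1.07% of all genes). Of the 13 genes, 8 had the same sign in inputs of HFD-fed against NCD-fed controls, where Fcer2a was not tested. Both comparisons used the same NCD-fed control inputs, so this count is not independent agreement. Among the 8 were Cers4 (log2 fold change -0.26 there) and Cd209c (-0.71). The part of the floxed allele's surroundings and of the deletion in these differences cannot be told apart.

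**Figure D3:**
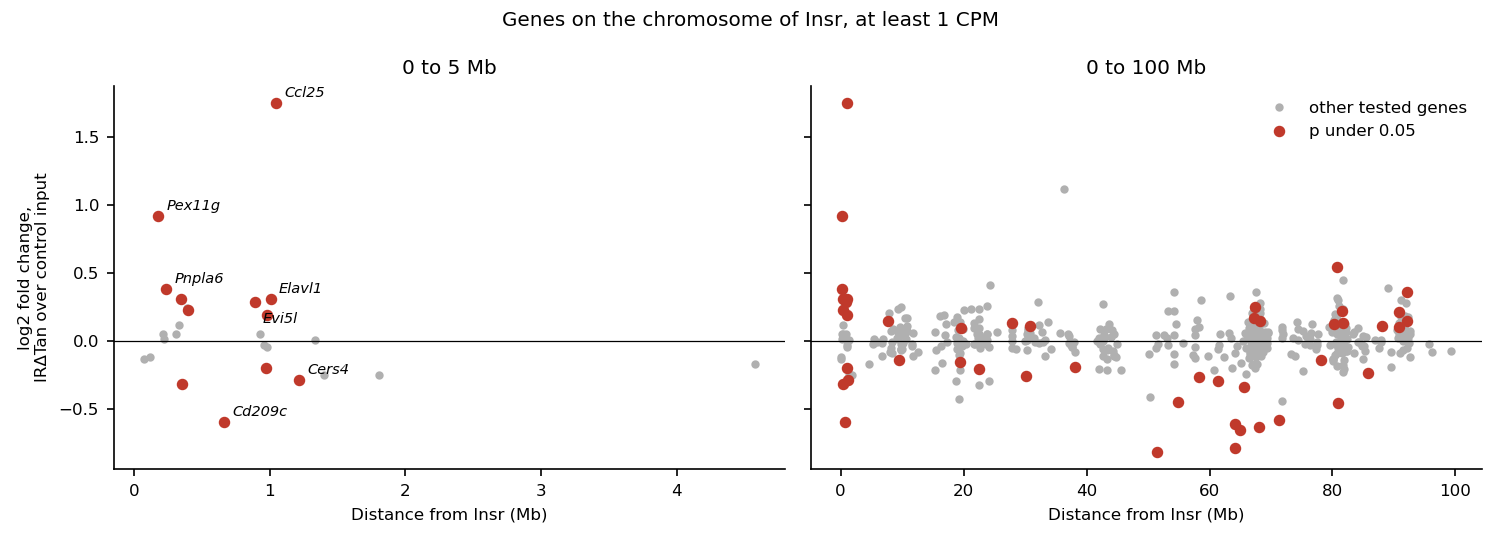
Log2 fold change of IRΔTan over control inputs (y axis) for genes of at least 1 CPM on the chromosome of Insr, by distance from Insr in Mb (x axis; left, 0 to 5; right, 0 to 100). Red points had an unadjusted p under 0.05. Within 2 Mb 12 of the 25 plotted genes did so, 8 higher and 4 lower, and Ccl25 stands highest at 1.75.

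Around the other genes past the threshold the counts were small. Within 1 Mb, 5 of 22 tested genes near Tmem181a had an unadjusted p under 0.05 (22.7%, against 8.02% of all genes tested), the pseudogene Tmem181b-ps and the similar pair Dynlt1b and Dynlt1c among them. The number was 1 of 13 near Dsp (Rreb1, a zinc finger gene, with 27.4, 23.1 and 29.5 CPM in IRΔTan against 37.7, 37.4 and 40.4 CPM in control inputs), 1 of 2 near Nlrp5-ps, 0 of 14 near D230017M19Rik and 0 of 5 near Gm6158, all from edgeR.

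The remaining genes of at least 10 CPM with the smallest p did not pass. On the higher side the pseudogene Gm15501 had a log2 fold change of 0.41 (adjusted p = 0.177 from edgeR), but 75.5% of its 31-base words occur in transcripts of other genes. The MAGE-family gene Magee1 on the X chromosome had a log2 fold change of 0.25, the ribosomal stalk gene Rplp1 0.24, the AMP synthesis gene Adss 0.26 and Ube2ql1 0.21, with adjusted p of 0.299 to 0.433 from edgeR. The pseudogene Gm9843 (0.28) shares 100% of its 31-base words with Fau, and 75.1% of those of Rplp1 occur in transcripts of other genes. On the lower side stood Cmah, the hydroxylase that makes N-glycolylneuraminic acid (-0.48), the centromere chaperone gene Hjurp (-0.33), Gm38394 (-0.43) and Gm38393 (-0.28), with adjusted p of 0.0795 to 0.191 from edgeR. Of the 31-base words of Gm38394, 91.2% occur in transcripts of other genes.

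Apart from Insr itself, genes of insulin signalling had values on both sides of 0. Of 31 tested genes of insulin and IGF signalling, 0 passed in edgeR or DESeq2. In edgeR 3 had an unadjusted p under 0.05 (2 higher, and Insr lower), which is 9.68%, against 8.02% of all genes tested. The median log2 fold change was 0.01, against 0.00 over all genes. The receptor substrate gene Irs2 had 28.1, 31.3 and 27.2 CPM in IRΔTan inputs against 25.9, 26.3 and 26.1 CPM in control inputs (log2 fold change 0.15, adjusted p = 0.615 from edgeR), and the kinase gene Gsk3a had a log2 fold change of 0.12. Irs4, a hypothalamic substrate, overlapped between groups at 94.4 to 117.4 CPM against 72.7 to 105.0 CPM. The 17 tested FOXO targets, which rise when insulin signalling is low, had a median of -0.02, and 0 passed in edgeR or DESeq2. At an unadjusted p under 0.05 1 was higher and 1 lower (11.8%, against 8.02% of all genes tested). In feeding hormone receptors the median of 28 genes was 0.02, and Nmbr, the neuromedin B receptor gene, had 3.02, 3.37 and 3.52 CPM against 4.29, 3.6 and 4.16 CPM (log2 fold change -0.28, SE 0.14) in the input, against 1.05 on tagged ribosomes.

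Arcuate neuropeptide and identity genes had mostly positive values, none past the threshold. Of 19 tested genes 15 had a positive log2 fold change (median 0.11), and 0 passed in edgeR or DESeq2. At an unadjusted p under 0.05 4 were higher (21.1%, against 3.38% of all genes tested). Pomc, the melanocortin precursor gene, had 7.80, 6.89 and 7.86 CPM in IRΔTan inputs against 6.95, 5.43 and 4.42 CPM in control inputs, which overlap (log2 fold change 0.42, SE 0.15, adjusted p = 0.580 from edgeR). Tac2, encoding neurokinin B, had a log2 fold change of 0.32 and Pdyn, encoding prodynorphin, one of 0.31. Agrp, the appetite-stimulating antagonist of melanocortin receptors, was low throughout, at 0.908 to 1.39 CPM against 0.652 to 1.56 CPM. This rested on control pool 3: without it 10 of 19 were positive, the median was 0.01 and 0 had an unadjusted p under 0.05. Neuropeptides of other nuclei behaved likewise, with 15 of 20 positive (median 0.13) but 11 of 20 without control pool 3, and the orexin precursor gene Hcrt had 25.9, 25.8 and 28.6 CPM against 24.3, 21.5 and 17.9 CPM (log2 fold change 0.33, adjusted p = 0.566 from edgeR).

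Microglial genes had values below 0 almost throughout. Of 12 tested markers 11 had a negative log2 fold change (median -0.24), and 0 passed in edgeR or DESeq2. At an unadjusted p under 0.05 5 were lower (41.7%, against 4.64% of all genes tested). Trem2, a lipid-sensing receptor of microglia, had 1.09, 0.871 and 0.809 CPM in IRΔTan inputs against 1.33, 2.22 and 1.91 CPM in control inputs (log2 fold change -0.98, SE 0.26, adjusted p = 0.566 from edgeR). The purinergic receptor gene P2ry12 had 8.90, 8.08 and 9.88 CPM against 11, 11.2 and 11.8 CPM (-0.34). Neither gene overlapped between groups, and 5 of the 12 markers were lower without overlap, against 6.87% of all genes. The summed level of the markers did overlap, at 151.9, 158.2 and 136.7 CPM against 164.1, 224.8 and 153.2 CPM, and control pool 2 was the highest. Without that pool 8 of 12 were negative, 3 of them at an unadjusted p under 0.05, and the median was -0.06.

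Genes of antigen presentation and of the interferon response varied among pools of both groups. Of 9 MHC class II presentation genes 8 were negative (median -0.48), and 0 passed the threshold in edgeR or DESeq2. At an unadjusted p under 0.05 5 were lower (55.6%, against 4.64% of all genes tested). H2-Aa, an MHC class II alpha chain, had 14.8, 19.2 and 8.01 CPM in IRΔTan inputs against 23.1, 39.2 and 19.6 CPM in control inputs (log2 fold change -0.96, SE 0.30, adjusted p = 0.569 from edgeR). H2-Eb1 (-0.89), Cd74 (-0.71) and the cathepsin gene Ctss (-0.48) overlapped between groups but kept the order of pools within each group, with pool 2 highest in both. Without control pool 2 the median of the list was -0.21 with 1 gene lower at an unadjusted p under 0.05. Without IRΔTan pool 2 it was -0.59 with 5 genes lower at that level. Interferon-response genes had mostly positive values, 22 of 30 with a median of 0.26, but every gene of that list overlapped between groups. Isg15, a ubiquitin-like protein, had 13.0, 17.5 and 6.18 CPM against 4.26, 10.1 and 3.6 CPM, and Ifit1, which binds viral RNA, 32.5, 38.2 and 15.3 CPM against 12.6, 24.5 and 10.4 CPM. IRΔTan pool 2 and control pool 2 were the highest of their groups, the summed levels being 970.0, 1128 and 570.8 CPM against 713.9, 1141 and 628.7 CPM. Without IRΔTan pool 2 the list stood at 15 of 30 positive, with 0 higher and 2 lower at an unadjusted p under 0.05. With all pools 4 were higher at that level (3.38% of all genes tested were), whereas 17 were without IRΔTan pool 3 and 14 without control pool 2. H2-D1, an MHC class I gene, went against the list (-0.57).

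**Figure D4:**
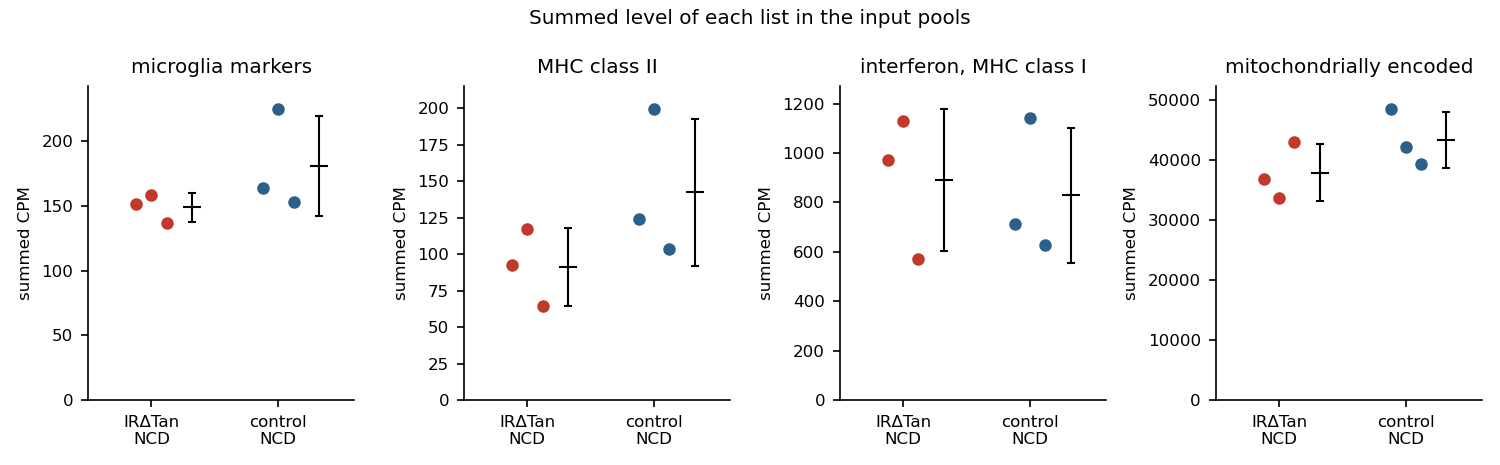
Summed level (y axes, CPM over the 10 inputs) of 4 gene lists in the 3 IRΔTan and 3 control input pools. Points are pools and bars are mean ± SD. Groups overlap in each list, and control pool 2 is highest for microglia markers (224.8 CPM) and MHC class II genes (199.4 CPM).

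Of the 25 tested chemokines and chemokine receptors, Ccl25 was the 1 called by edgeR, and Ccl5 was next. Ccl5, which encodes the T-cell and monocyte attractant RANTES, had 5.50, 7.15 and 5.06 CPM in IRΔTan inputs against 9.88, 17.9 and 11.6 CPM in control inputs (log2 fold change -1.15, SE 0.21, adjusted p = 0.212 from edgeR). It passed in DESeq2, where it and Ccl25 were the only 2 called of the 539 genes in the lists, against 52 of all 24205 genes tested. The list median was 0.03, so that it had no common direction.

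Choroid plexus, oligodendrocyte and astrocyte markers did not pass. Ttr, the transthyretin gene of choroid plexus epithelium, had 9.87, 23.2 and 12.7 CPM in IRΔTan inputs against 6.56, 4.22 and 6.50 CPM in control inputs (log2 fold change 1.4, SE 0.29, adjusted p = 0.330 from edgeR), and it was far more variable in HFD-fed controls, at 4.62 to 200.0 CPM. Among 7 tested choroid plexus markers the median was 0.15, with 0.30 for Kl, and the summed level was 201.3 to 230.1 CPM against 199.4 to 206.9 CPM. The part of tissue carried along at dissection was not tested. Among 17 oligodendrocyte markers Aspa (-0.23) and Opalin (-0.21) had an unadjusted p under 0.05 (11.8%, against 8.02% of all genes tested), and the list median was 0.01. For the astrocyte filament gene Gfap, pools overlapped at 49.5 to 77.3 CPM against 36.0 to 66.9 CPM. The tanycyte list had a median of 0.03 with 0 genes at an unadjusted p under 0.05 and 0 passing in edgeR or DESeq2. Dio2 stood at 26.7, 38.5 and 37.3 CPM against 38.4, 32.1 and 42.3 CPM. Vcan, the versican gene, had a log2 fold change of -0.13.

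Chaperone and ribosomal protein genes had mostly small positive values, and mitochondrially encoded genes negative ones. Of 20 cytosolic chaperones 18 were positive (median 0.09), and 0 passed the threshold in edgeR or DESeq2. At an unadjusted p under 0.05 3 were higher (15%, against 8.02% of all genes tested in either direction), and 1 higher and 1 lower without control pool 3. Among the 3 was Hsph1, an Hsp110-family chaperone, with 520.5, 513.9 and 515.9 CPM in IRΔTan inputs against 498.3, 453.5 and 436.4 CPM in control inputs (log2 fold change 0.16, SE 0.05, adjusted p = 0.577 from edgeR). Hspd1, the mitochondrial chaperonin, had 227.2, 223.2 and 221.8 CPM against 209.7, 199.2 and 196.2 CPM (0.15, SE 0.04, adjusted p = 0.566 from edgeR). The groups did not overlap for either gene, but 53.1% of the 31-base words of Hspd1 occur in transcripts of other genes. Hsp90aa1 (0.12) and Dnaja1 (0.06) overlapped, and Timm50, of the mitochondrial import machinery, had -0.10. Of 80 cytosolic ribosomal protein genes 70 were positive (median 0.06), 23 of them without overlap (7.03% of all genes were higher without overlap), and 0 passed in edgeR or DESeq2. In edgeR 12 had an unadjusted p under 0.05 (15%, against 8.02% of all genes tested). Their number was 5 without control pool 3, 5 without IRΔTan pool 2, 6 without IRΔTan pool 1 and 7 without IRΔTan pool 3. All 13 mitochondrially encoded genes were negative (median -0.18), with 3 at an unadjusted p under 0.05 (23.1%, against 8.02% of all genes tested). The largest of them, mt-Co1, had 15961, 14384 and 18299 CPM against 21329, 18757 and 17347 CPM, which overlap, and all 13 reached that level without IRΔTan pool 3, 7 without control pool 3 and 0 without IRΔTan pool 1, IRΔTan pool 2 or control pool 1. The mitochondrial share of all counts was 28.6% to 33.0% against 32.4% to 34.4%. With library totals the medians were 0.15, 0.12 and -0.13, in the order chaperones, ribosomal proteins, mitochondrially encoded, and 8, 32 and 1 genes had an unadjusted p under 0.05.

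**Figure D5:**
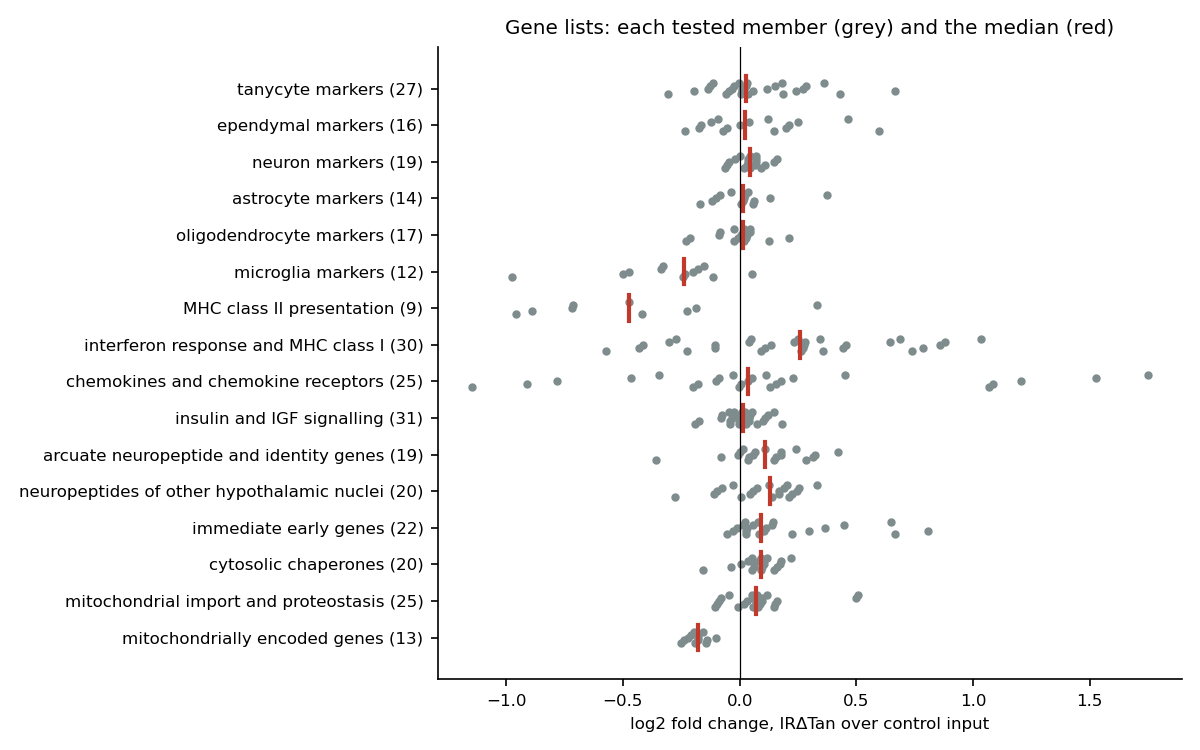
Log2 fold change of IRΔTan over control inputs (x axis) for each tested member (grey) of 16 gene lists (y axis, number tested in brackets), with list medians in red. Medians lie between -0.48 for MHC class II and 0.26 for the interferon response, and the point at 1.75 is Ccl25.

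Genes of cholesterol synthesis, the immediate early response and ER stress had small positive medians. The 20 cholesterol synthesis genes had a median of 0.04, with 0.18 for the squalene synthase gene Fdft1 and 0.15 for its regulator Srebf2. Of 22 immediate early genes 19 were positive (median 0.09), with Egr2 at 1.51, 2.00 and 2.04 CPM in IRΔTan inputs against 1.03, 1.28 and 1.18 CPM in control inputs and Egr3 at a log2 fold change of 0.81. The 21 tested genes of ER stress had a median of 0.07, with 0.16 for Asns and 0.12 for Atf4. In none of these lists did edgeR or DESeq2 call a gene. Genes at an unadjusted p under 0.05 in edgeR numbered 2, 2 and 3 (10%, 9.09% and 14.3%, against 8.02% of all genes tested).

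By gene class, long noncoding RNAs and unconfirmed transcripts (TEC) had lower values than protein-coding genes. Of 2704 tested, 305 were lower and 18 higher at an unadjusted p under 0.05 (11.9%), with a median log2 fold change of -0.20, whereas of 15217 protein-coding genes 501 were lower and 598 higher (7.22%), with a median of 0.01. The share of all counts in noncoding genes was 2.95% to 3.40% in IRΔTan pools and 3.17% to 3.55% in control pools. With library totals the noncoding median was -0.14, with 214 lower and 31 higher, and without control pool 3 it was -0.13, with 136 lower and 29 higher, against 173 lower without IRΔTan pool 2. The female-specific noncoding RNA Xist had 3.46, 2.56 and 1.66 CPM against 3.94, 2.96 and 6.16 CPM, which overlap, in these mixed-sex pools.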

How the data were processed

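RNA from the lysates of pooled arcuate and median eminence tissue was amplified, sequenced as paired ends and quantified per gene by the authors with Salmon 0.14.1 on GRCm38, and they deposited the estimated counts of 44674 genes, 20 libraries in all. The tool list of the submitters' processing notes also names STAR and DESeq2 1.30.0. The deposited tables of the authors' own comparisons (fold changes and p-values) were not used, except for the gene identifiers of one table in 1 alternative. Here 28.0% of the estimated counts were not whole, and all were rounded to whole numbers. Genes were kept by edgeR's expression filter with a minimum count of 10, scaled by TMM and tested with edgeR 4.0.16 (quasi-likelihood, R 4.3.3) on the 6 inputs, with Benjamini–Hochberg adjustment over all genes tested and a threshold of 0.05. Gene positions and classes came from the GENCODE M21 annotation (GRCm38), which held 44118 of the identifiers. CPM are counts scaled to a common total of tested counts, over the 6 inputs unless another set is named. Estimated counts of genes that share sequence depend on how Salmon divides reads, which was checked as the share of 31-base words found in other genes' transcripts.

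Genes were named in the text when they passed the threshold, when they were Insr or Ccl25, when they were among the 10 per direction with the smallest p at a mean of at least 10 CPM without overlap, when they were among the 3 smallest p of a list, when the paper names them or when they lie near Insr or a called gene. Of the lists, 1 entry (Kiss1) had no identifier. Some genes that the rule names are not reported here. The comparison, lists and rules were chosen with earlier results of these data known. Lists, gene classes and the neighbourhood of Insr were also recounted without each pool and with other scalings, which was chosen after seeing the data. Other alternatives were DESeq2 1.42.0, other scalings, filters, fits with more libraries, a block, a covariate of 4 Y-linked genes and leaving out each pool. The procedure was tested on simulated data, where the share of false calls ran above the threshold and recovery fell with smaller changes. Replicates are pools of different mice, and p-values from edgeR set the group difference against the spread between pools. SEs and SDs include that spread, whereas the floor given for Gm6158 covers counting error only.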

Additional observations from a re-analysis of the deposited data

Results flagged for a closer look

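The effect of receptor deletion on Insr differed between fractions of the same pools. It was 1.36 log2 units higher, that is, less negative, in the input than in the immunoprecipitation (edgeR adjusted p = 0.0482 for the interaction), with log2 fold changes of -0.19 in the input and -1.54 in the immunoprecipitation, neither past the threshold in its own fit (edgeR adjusted p = 0.568 and 0.0504). IRΔTan pools were below control pools in 3 of 3 cases in each fraction. Over the settings tried the size of the difference was 1.21 to 1.46, and its adjusted p ranged from 8.63e-09 in DESeq2 to 0.644 in edgeR without control pool 2.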

How the results depend on the processing

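The 2 genes higher and 4 lower depended on the fit. DESeq2 called 11 higher and 41 lower, and edgeR without an expression filter 34 and 76, all 6 genes among them in both. With a mean of at least 5 CPM 2 genes were lower, among genes listed in the deposited immunoprecipitation comparison 1 was higher and 2 were lower, in the fit of the 10 inputs 1 was lower and with the Y-linked covariate 1 was higher and 1 lower. The fit of all 20 libraries called 1 higher and 0 lower, and that of the 12 libraries of NCD-fed mice called 0 and 0 (326 genes at an unadjusted p under 0.05), Ccl25 having an adjusted p of 0.0635 there at a log2 fold change of 1.75. Without 1 pool each, 1 gene was higher and 0 to 4 were lower. The interaction with fraction called 12 genes in DESeq2, 0 with median-ratio size factors (893 at an unadjusted p under 0.05), 5 without a filter, 1 with the pool as a replicate block and 0 to 2 without 1 pool. Shared pool numbers did not pair the inputs: correlations of same-numbered deviations were -0.03, 0.11 and 0.08, and not every sample correlated best with its own number. With the number as a replicate block 4 genes were higher and 14 lower. Of the 539 genes in the lists, 12 passed without an expression filter and 8 with the block, H2-Aa, H2-Eb1, H2-D1, Cd74, Ccl5 and Ccl25 in both. Among all genes tested, 110 of 30578 passed without the filter and 18 of 18782 with the block. Signs turned for 2 genes without 1 pool: Agrp ranged from -0.37 to 0.15 (0.05, 0.03 and 0.15 without IRΔTan pool 2, control pool 1 and control pool 2) and Dio2 from -0.24 to 0.013 (without IRΔTan pool 1). Insr ranged from -0.25 to -0.14 and did not pass in any setting. Below 1 CPM the median SE of 0.42 limits what could be seen.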
